A study of Mus musculus with 6 samples.

Results

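The transcripts of 6 subunits of the PAF1 complex, *Cdc73*, *Paf1*, *Ctr9*, *Leo1*, *Rtf1* and *Wdr61*, were followed in RNA sequencing of mouse hepatocytes, the parenchymal cells of the liver. All 6 were found among the 55487 gene rows of the count tables. All 6 were also among the 12741 genes expressed highly enough to be tested. One group came from mice homozygous for AEG-1-C75S (C75S below), in which a serine replaces a cysteine of AEG-1, the endoplasmic reticulum protein encoded by *Mtdh*. The other came from wild-type mice (WT) of the same heterozygote matings. Mice of both groups were adult (6 to 8 weeks old), all libraries carry the treatment label Control, and RNA was extracted 48 h after the hepatocytes were isolated, so both groups had spent that time out of the liver. Each of the 2 genotypes was sequenced as 3 libraries. Sex, strain background, the way the allele was made and the number of mice behind a library are not given in the sources used here. The replicates may therefore not be separate animals, and p-values then measure only the spread between libraries.

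The PAF1 complex travels with elongating RNA polymerase II. It recruits the enzymes that attach a single ubiquitin to histone H2B, a mark that in turn favours methylation of histone H3 over transcribed genes. *Cdc73* encodes parafibromin, a tumour suppressor lost in hereditary parathyroid tumours, which also binds beta-catenin. *Cdc73* was included because its level differed between these genotypes, so its difference is given as a description, with no test. The other 5 genes were included as subunits of the same complex and not for their values.

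*Cdc73* lies on the minus strand of chromosome 1 (143598800 to 143702893, GRCm38, ENSMUSG00000026361). Its start site sits in a stretch very rich in CpG dinucleotides. The bases upstream of the start are shown for *Cdc73*, for *Rgs2*, the nearby gene on the same strand that was also lower in C75S, and for *Paf1*, a subunit whose libraries overlapped between genotypes. Each is written 5′ to 3′ on the gene's strand up to the first annotated start, with CpG dinucleotides in capitals, from RefSeq windows of GRCm38.p6. The regions are chr1:143702894-143703143 (minus strand), chr1:144004162-144004399 (minus strand) and chr7:28392746-28392950 (plus strand).
Cdc73: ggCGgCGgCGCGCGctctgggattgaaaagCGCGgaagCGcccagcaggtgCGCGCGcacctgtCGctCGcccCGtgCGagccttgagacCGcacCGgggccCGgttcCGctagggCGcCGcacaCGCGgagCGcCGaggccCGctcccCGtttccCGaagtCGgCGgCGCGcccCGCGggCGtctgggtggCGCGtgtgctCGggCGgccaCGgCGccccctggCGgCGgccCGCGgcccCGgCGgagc
Rgs2: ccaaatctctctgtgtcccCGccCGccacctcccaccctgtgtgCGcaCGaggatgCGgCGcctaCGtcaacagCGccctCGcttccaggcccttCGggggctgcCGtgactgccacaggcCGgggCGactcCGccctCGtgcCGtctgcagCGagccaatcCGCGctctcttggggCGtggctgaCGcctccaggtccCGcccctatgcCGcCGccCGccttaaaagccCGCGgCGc
Paf1: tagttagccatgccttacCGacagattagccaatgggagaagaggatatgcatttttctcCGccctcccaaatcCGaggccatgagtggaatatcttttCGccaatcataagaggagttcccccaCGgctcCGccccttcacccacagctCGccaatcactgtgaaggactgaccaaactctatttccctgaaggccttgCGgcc

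RefSeq windows were found for 4 of the 6 subunits (*Cdc73*, *Paf1*, *Leo1* and *Rtf1*). In the 250 bases upstream of the RefSeq start, *Cdc73* had 47 CpG dinucleotides and a GC content of 80.4%. Of all 32851 windows, 0.25% held at least as many CpG dinucleotides, and the median window held 6. *Rgs2* had 30, *Rtf1* 28, *Leo1* 21 and *Paf1* 11. The TATA box letters TATAAA, sought on both strands and present in 12.4% of windows, were in none of these 5 windows. CCAAT, sought on both strands and present in 33.8% of windows, occurred 3 times in the *Paf1* window, 1 time in the *Rgs2* window and not in that of *Cdc73*. GGGCGG, the core of a GC box, present on either strand in 32.7% of windows, occurred 1 time for *Cdc73*, 2 times each for *Paf1* and *Leo1*, and 4 times each for *Rtf1* and *Rgs2*. These are letter matches only, and no binding was measured.

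The libraries held 16944723 to 21044292 counts on genes, with C75S replicate 1 the shallowest. WT replicate 1 had the fewest genes with a count, 17412 against 18125 to 18575 in the others. Levels are given as CPM, counts per 1000000 counts on tested genes after TMM scaling. *Mtdh* itself averaged 200 ± 10.5 CPM over the C75S and 197 ± 5.18 CPM over the WT libraries (SD, n = 3 each), and its log2 fold change was 0.02 (95% interval -0.08 to 0.13). A gene count does not read the mutated codon, so this value does not check the genotype labels. The 8 hepatocyte markers together made up 66512 to 79425 CPM in C75S and 74688 to 82418 CPM in WT, which overlap. Most of that sum was *Alb*, which averaged 60607 ± 5471 CPM over the C75S and 67143 ± 3618 CPM over the WT libraries. Of the 8 markers, 0 were called (adjusted p under 0.05 by edgeR's quasi-likelihood test over all tested genes). *Alb* was the 1 marker at an unadjusted p under 0.05, with a log2 fold change of -0.15 (SE 0.07), and the median of the 8 was -0.02. In such bulk libraries, fewer cells of a type and less RNA per cell cannot be told apart.

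*Cdc73* was lower in every C75S library than in any WT library. Its counts were 426, 518 and 448 in C75S replicates 1 to 3 and 884, 941 and 926 in WT replicates 1 to 3. Scaled for depth, it stood at 24.5, 24.6 and 24.0 CPM in C75S and at 42.0, 45.9 and 44.9 CPM in WT. The gap between the genotypes, from 24.6 to 42.0 CPM, was many times the spread within either. The means were 24.3 ± 0.32 CPM for C75S and 44.3 ± 2.03 CPM for WT (SD, n = 3 each), which is -0.86 on the log2 scale, C75S minus WT (SE 0.07). The C75S level was thus 55.0% of the WT level. Counting error alone would give SDs of 1.13 CPM in C75S and 1.46 CPM in WT, so the SD among the 3 C75S libraries was smaller than counting error would give and that among WT somewhat larger. Leaving out any 1 library kept the log2 fold change between -0.90 and -0.84. Among the 12741 tested genes, 75 had a log2 fold change at least as low, and 5 of these had a mean of at least 5 CPM, a level that 9636 tested genes reached. Full separation of the libraries in this direction was seen for 8.96% of tested genes, and a call in this direction for 1.37%; *Cdc73* was chosen on this contrast, so nothing is read from either share.

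**Figure D1:**
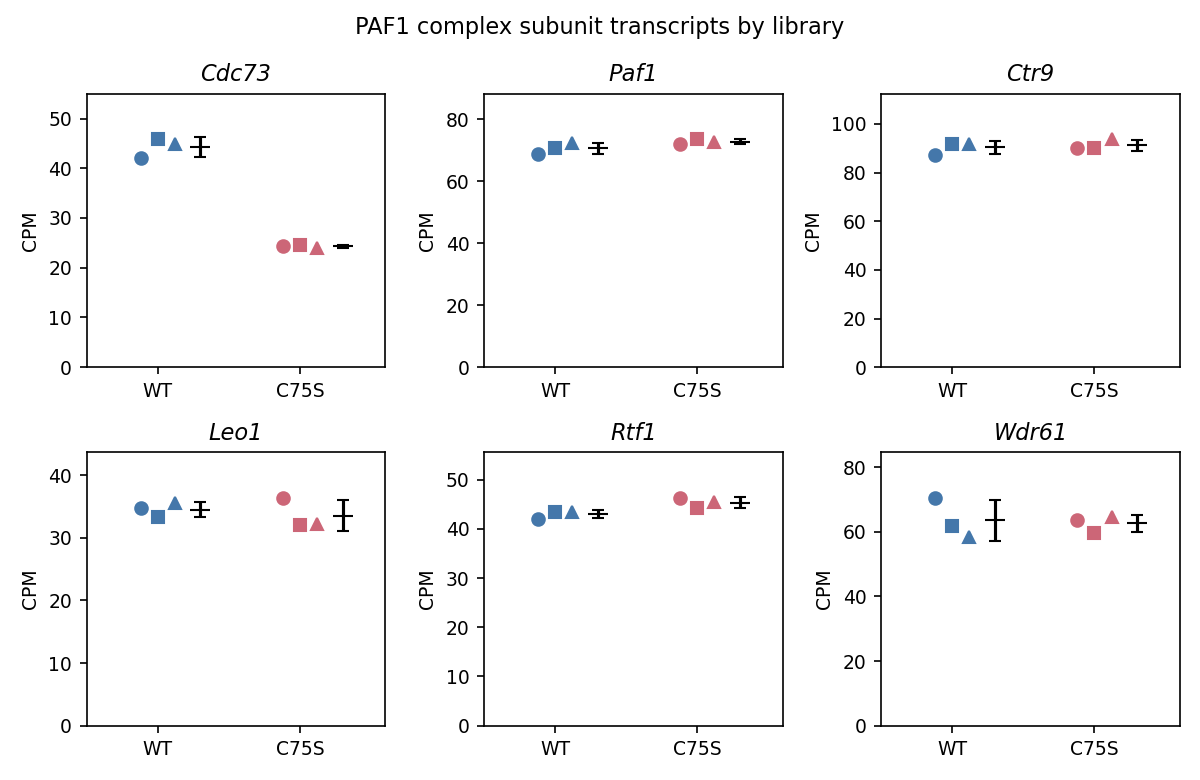
Level of each PAF1 complex subunit (CPM, axis from 0) in the 3 WT (blue) and 3 C75S (red) libraries; circle, square and triangle are replicates 1, 2 and 3, and black bars are mean ± SD. Cdc73 sits at 24.0 to 24.6 CPM in C75S and 42.0 to 45.9 CPM in WT, while the genotype means of the other subunits lie close together.

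The other 5 subunits lay near their WT levels in C75S. By edgeR's quasi-likelihood test 0 of the 5 were called, against 3.11% of all tested genes, and 0 of the 5 had an unadjusted p under 0.05. DESeq2 and limma-voom also called 0 of the 5. Their median log2 fold change was 0.01, against -0.003 over all tested genes, and the lowest and highest bounds of their 95% intervals were -0.20 and 0.21.

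*Paf1* and *Leo1* encode partners that form a dimer within the complex. *Paf1* (ENSMUSG00000003437, chromosome 7, 28392951 to 28399388) was at 71.9, 73.5 and 72.6 CPM in C75S and 68.7, 70.6 and 72.3 CPM in WT. WT replicate 3 lay within the C75S range, so the groups overlapped, and the log2 fold change was 0.04 (SE 0.05, 95% interval -0.07 to 0.16, adjusted p by edgeR = 0.801). *Leo1* (ENSMUSG00000042487, chromosome 9, 75441524 to 75466432) was at 36.4, 32.0 and 32.3 CPM in C75S and 34.8, 33.2 and 35.5 CPM in WT. C75S replicate 1 was the highest library of all and the other C75S libraries were the lowest. The log2 fold change of *Leo1* was -0.04 (SE 0.07, 95% interval -0.20 to 0.11, adjusted p by edgeR = 0.873).

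*Ctr9* encodes the large scaffold subunit on which the complex is built. It was at 89.9, 89.9 and 93.7 CPM in C75S and 87.2, 91.9 and 91.9 CPM in WT (ENSMUSG00000005609, chromosome 7, 111028951 to 111056377). The ranges of the genotypes overlapped, and the log2 fold change was 0.01 (SE 0.05, 95% interval -0.09 to 0.12, adjusted p by edgeR = 0.949). In counts it was the most abundant of the 6 transcripts in every library.

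*Rtf1* encodes the subunit whose histone modification domain stimulates ubiquitination of H2B. It was at 46.3, 44.2 and 45.5 CPM in C75S and 42.1, 43.5 and 43.3 CPM in WT (ENSMUSG00000027304, chromosome 2, 119675068 to 119735407). All C75S libraries were above all WT libraries, a separation upward that 9.02% of tested genes showed, and it was small: the log2 fold change was 0.08 (SE 0.06, 95% interval -0.05 to 0.21, adjusted p by edgeR = 0.665).

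*Wdr61*, also called *Skic8*, encodes a WD-repeat protein that is shared with the SKI complex, which feeds RNA to the cytoplasmic exosome. It was at 63.6, 59.6 and 64.5 CPM in C75S and 70.6, 61.7 and 58.2 CPM in WT (ENSMUSG00000061559, chromosome 9, 54714735 to 54734519). WT replicate 1 was the highest and WT replicate 3 the lowest of the 6, so WT spanned the whole C75S range. The log2 fold change was -0.02 (SE 0.07, 95% interval -0.16 to 0.11, adjusted p by edgeR = 0.933), and it was 0.06 without WT replicate 1. Of the other SKI complex genes, 0 of 2 were called and 0 had an unadjusted p under 0.05. *Skiv2l*, its helicase, had a log2 fold change of 0.004 (SE 0.06, adjusted p by edgeR = 0.986) and *Ttc37*, its scaffold, one of 0.05 (SE 0.06, adjusted p by edgeR = 0.806).

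Summed over the 5 subunits other than *Cdc73*, the level was 308, 299 and 309 CPM in C75S and 303, 301 and 301 CPM in WT. The balance between subunits can be read within a library, where depth and scaling cancel. For each 100 counts of *Paf1* there were 34.0, 33.4 and 33.0 counts of *Cdc73* in C75S and 61.1, 64.9 and 62.1 in WT. Against *Rtf1*, the *Cdc73* count was 52.8%, 55.6% and 52.7% in C75S and 99.8%, 105% and 104% in WT. *Cdc73* therefore had about as many counts as *Rtf1* in WT and clearly fewer in C75S. Against *Leo1* it went from above to below, with 67.2% to 76.9% in C75S and 121% to 138% in WT. Against *Ctr9* it was 25.6% to 27.3% in C75S and 48.1% to 49.9% in WT, and against *Wdr61* 37.1% to 41.2% and 59.5% to 77.2%. With each of the 5 denominators the genotypes did not overlap, a description that the choice of *Cdc73* fixes in part.

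**Figure D2:**
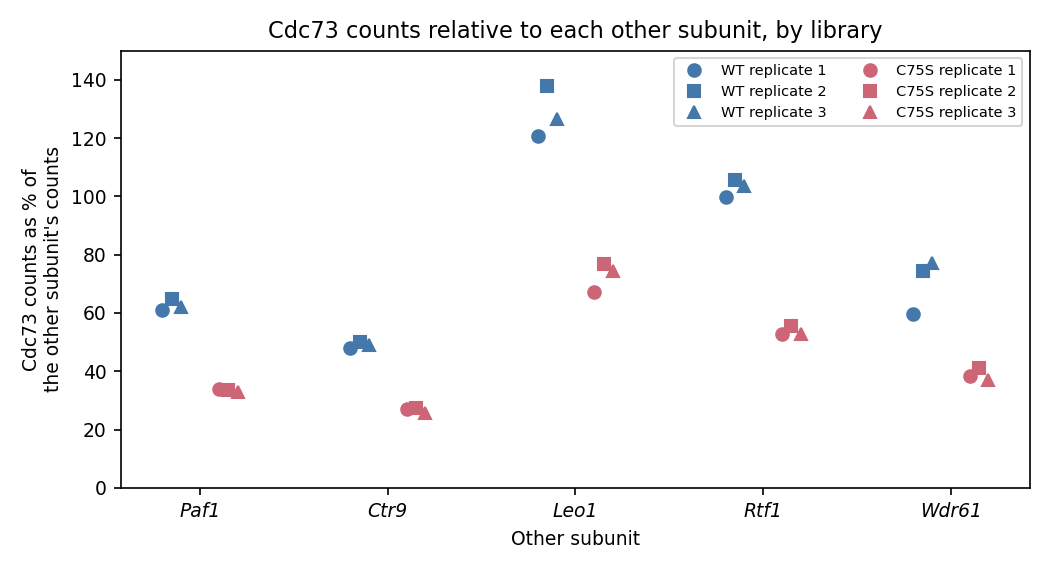
Counts of Cdc73 as a percent of the counts of each other subunit in the same library, for WT (blue) and C75S (red) replicates 1 to 3 (circle, square, triangle); the axis starts at 0. Every C75S point lies below every WT point of the same column, for example 33.0% to 34.0% against 61.1% to 64.9% for Paf1.

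Levels of different genes were compared per kilobase of the principal transcript (CPM per kb). In WT the order ran from *Wdr61* (49.2 ± 4.93) and *Paf1* (35.2 ± 0.91) through *Ctr9* (21.0 ± 0.63), *Leo1* (15.8 ± 0.53) and *Rtf1* (9.21 ± 0.17) to *Cdc73* (3.82 ± 0.18; SD, n = 3 each). No neighbours in this order overlapped in range among the WT libraries. In C75S the order was the same, with *Cdc73* at 2.10 ± 0.03 CPM per kb. The principal transcript of *Cdc73* is 11586 bases long, of which 1593 are coding, and the place of *Cdc73* in the order rests on that length. Per kilobase of all annotated exons merged (17613 bases) it was also the lowest, in both genotypes. Per kilobase of coding sequence it was the third of 6 in WT, at 27.8 ± 1.27, within the range of no other subunit. On that scale it was the lowest of 6 in C75S, at 15.3 ± 0.20, next to *Leo1* at 16.8 ± 1.24. Which of its annotated ends hepatocytes use was not analysed here.

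The genes around *Cdc73* did not all follow it. Of 29 annotated genes starting within 2 Mb of *Cdc73*, 8 were expressed highly enough to test, and none of the other 21 had more than 15 counts over all 6 libraries. Of the 7 tested genes other than *Cdc73*, 1 was called by edgeR, *Rgs2*, which was lower; 1.37% of all tested genes were called in that direction. *Rgs2* was known to be lower before the window was set, so this count is a description. *Rgs2* encodes a regulator of G protein signalling that speeds the switching off of heterotrimeric G proteins. It begins 301 kb from the *Cdc73* start site (chromosome 1, 143999338 to 144004161) and was at 19.4, 18.4 and 21.7 CPM in C75S and 34.2, 41.4 and 34.3 CPM in WT, a log2 fold change of -0.89 (SE 0.09, adjusted p by edgeR = 9.70e-07).

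Between *Cdc73* and *Rgs2* lie 3 protein-coding genes that were tested and not called. *Glrx2*, which encodes a glutaredoxin and starts 13.4 kb from the start site of *Cdc73*, was at 18.9, 19.7 and 19.9 CPM in C75S and 20.5, 22.7 and 19.6 CPM in WT. Its log2 fold change was -0.10 (95% interval -0.29 to 0.09, adjusted p by edgeR = 0.696), and its groups overlapped. *Trove2*, which encodes the RNA-binding Ro60 protein and lies on the same strand as *Cdc73*, was at 15.8, 16.3 and 14.3 CPM in C75S and 15.4, 19.1 and 18.1 CPM in WT (log2 fold change -0.18, 95% interval -0.39 to 0.03, adjusted p by edgeR = 0.482). *Uchl5*, which encodes a proteasome-bound deubiquitinase, was at 35.1, 31.1 and 30.1 CPM in C75S and 32.7, 33.5 and 31.4 CPM in WT (log2 fold change -0.02, 95% interval -0.18 to 0.14, adjusted p by edgeR = 0.945). *Trove2* and *Uchl5* were named after their values were seen. On the other side the nearest tested gene was the pseudogene *Gm5835*, 504 kb away, averaging 1.13 ± 0.24 CPM over the C75S and 1.11 ± 0.38 CPM over the WT libraries (SD, n = 3 each).

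**Figure D3:**
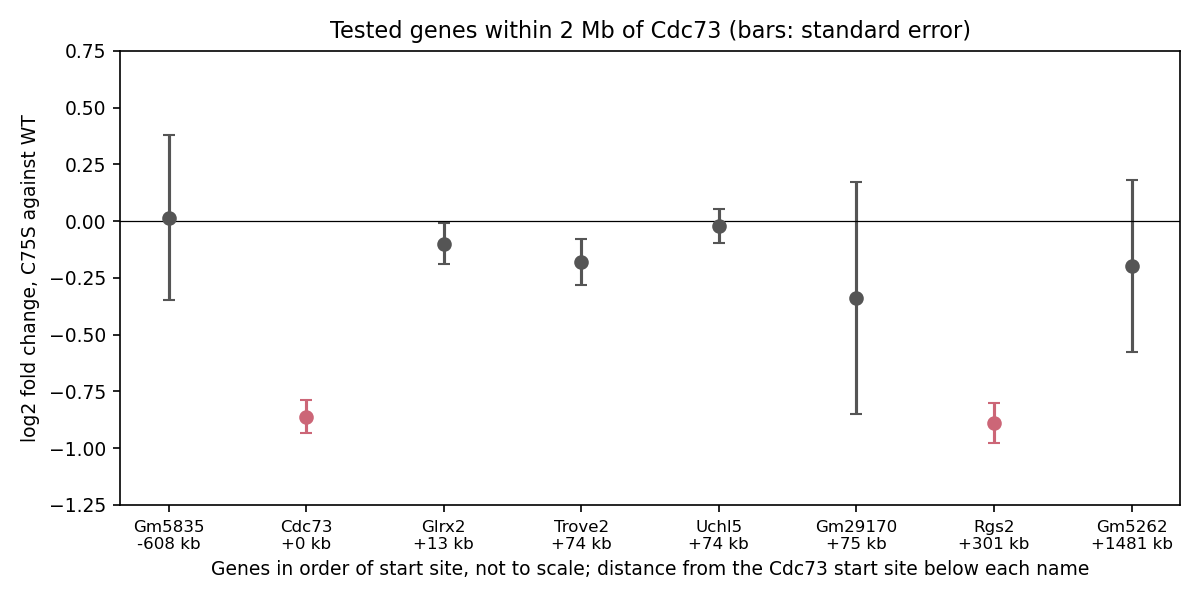
Log2 fold change of C75S against WT (points, with standard errors as bars) for the 8 tested genes within 2 Mb of Cdc73, in order of their start sites and not to scale. Cdc73 and Rgs2 (red) are at -0.86 and -0.89, and Glrx2, Trove2 and Uchl5 between them are at -0.10, -0.18 and -0.02.

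*Cdc73* shares little sequence with its surroundings. *B3galt2*, a galactosyltransferase gene inside *Cdc73* on the opposite strand, overlaps 3.86% of its exon bases and had 0 counts in all 6 libraries. No transcript of another gene matched the principal transcript of any of the 6 subunits at 90% identity or more over at least 100 bases. No exon base of the 6 was shared with another gene on the same strand.

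The genes whose levels followed *Cdc73* most closely over the 6 libraries were *Cidec*, *Ifi44*, *Plekhh1*, *Rgs2* and *Bmf*. Likeness was the root mean square difference of log2(CPM + 0.1), centred on each gene's mean, among named genes of at least 5 CPM. All 5 genes were lower in every C75S library than in any WT library, which this choice favours. *Cidec*, which encodes a lipid droplet protein of the CIDE family, came closest, with a difference of 0.03. It was at 17.9, 17.8 and 18.2 CPM in C75S and 30.3, 32.3 and 33.2 CPM in WT, so that, as for *Cdc73*, WT replicate 1 was the lowest WT library and the C75S libraries lay close together. *Ifi44*, an interferon-stimulated gene, followed at 0.10 and *Plekhh1*, which encodes a PH-domain protein, at 0.10. *Rgs2* was at 0.11, and *Bmf*, which encodes a pro-apoptotic BH3-only protein, at 0.12. Among all 9635 other genes of at least 5 CPM, the other PAF1 complex genes ranked from 3059 (*Leo1*, difference 0.42) to 7047 (*Rtf1*, 0.47). *Cdc73* was chosen for its difference between genotypes, so any gene without one lies away from it, and these ranks show nothing particular to the subunits.

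**Figure D4:**
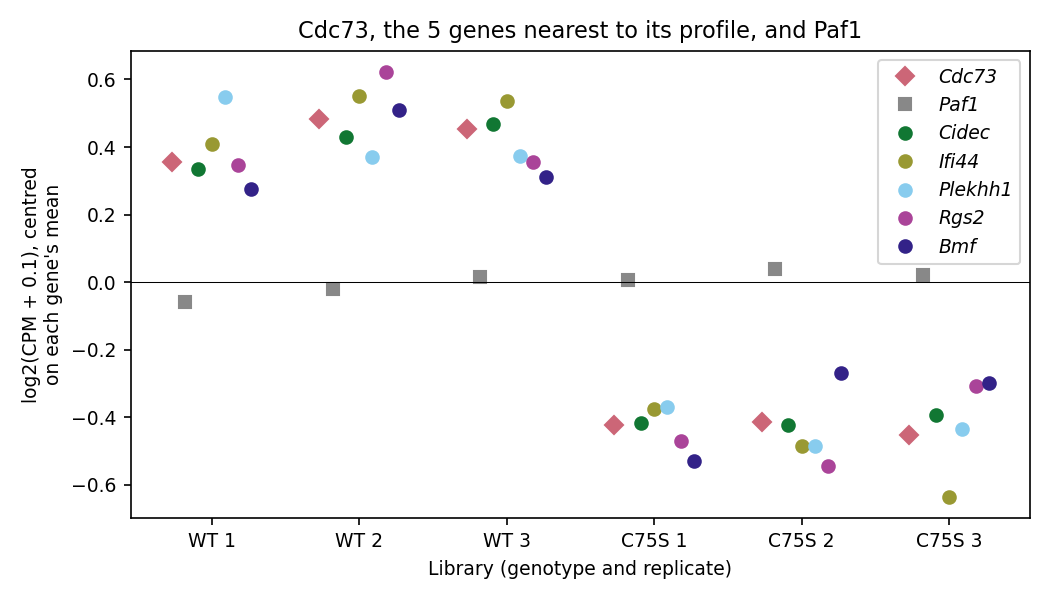
Log2(CPM + 0.1) of each gene minus its mean over the 6 libraries, for Cdc73 (diamonds), the 5 genes closest to it (circles) and Paf1 (squares), in WT and C75S replicates 1 to 3. Cidec lies nearest to Cdc73, at a root mean square difference of 0.03, and Paf1 stays near 0 throughout.

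Of 63 genes in 6 lists of the machinery that works with the PAF1 complex (SKI complex, H2B ubiquitination, histone methylation, pausing and elongation, P-TEFb with the super elongation complex, and RNA polymerase II subunits), 61 were tested and 0 were called by edgeR, by DESeq2 or by limma-voom. Over all tested genes edgeR called 3.11%. Unadjusted, 7 of the 61 had a p under 0.05 by edgeR, against 13.4% of all tested genes, so neither count sets these genes apart. Their median log2 fold change was -0.02, and 58 of the 61 had an estimate within 0.2 of 0 on the log2 scale. *Tcea2* had the largest estimate, at -0.48 (SE 0.45), from 0.44 to 1.00 CPM.

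Of the 6 genes for H2B ubiquitination, 0 were called, 1 had an unadjusted p under 0.05 and the median log2 fold change was -0.06. *Rnf20* and *Rnf40* encode the ligase that the PAF1 complex recruits, and their log2 fold changes were -0.09 (SE 0.05) and 0.0006 (SE 0.05). *Ube2b*, which encodes a ubiquitin-conjugating enzyme for this mark, was at 78.95, 77.51 and 77.03 CPM in C75S and 84.6, 83.9 and 82.9 CPM in WT. These groups did not overlap, a separation downward that 8.96% of tested genes showed. The difference was small and did not pass (log2 fold change -0.11, SE 0.05, adjusted p by edgeR = 0.379). *Usp22*, which encodes a deubiquitinase for H2B, had a log2 fold change of -0.13 (SE 0.06, adjusted p by edgeR = 0.296). The summed level of the 6 genes was 454 to 459 CPM in C75S and 474 to 477 CPM in WT, with no overlap. How often sums over other sets of genes separate was not tested, so nothing is read from this.

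Of the 11 genes for methylation of histone H3, 0 were called and 1 had an unadjusted p under 0.05, with a median log2 fold change of -0.02. The lowest p-values belonged to *Setd2*, the lysine methyltransferase of transcribed gene bodies, at -0.11 (SE 0.05, adjusted p by edgeR = 0.308), and *Dpy30*, a shared subunit of the COMPASS methyltransferases, at 0.17 (SE 0.08, adjusted p by edgeR = 0.380). Among the 13 pausing and elongation factors, 0 were called and 0 had an unadjusted p under 0.05. *Ssrp1*, a subunit of the histone chaperone FACT, was at 0.08 (SE 0.05, adjusted p by edgeR = 0.518) and *Iws1*, which binds the elongation factor SPT6, at 0.07 (SE 0.06, adjusted p by edgeR = 0.639).

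The list of P-TEFb, its regulators and the super elongation complex had 16 tested genes of 18. Of the 16, 0 were called and 4 had an unadjusted p under 0.05, against 13.4% of all tested genes. *Ell2*, an elongation factor of the super elongation complex, came closest to a call. It was at 176, 180 and 181 CPM in C75S and 194, 199 and 205 CPM in WT, a log2 fold change of -0.15 (SE 0.05, adjusted p by edgeR = 0.0901). *Aff1*, a scaffold of the same complex, was at 149, 146 and 154 CPM in C75S and 139, 134 and 133 CPM in WT, a log2 fold change of 0.14 (SE 0.05, adjusted p by edgeR = 0.132). Neither gene overlapped between genotypes, and they lay in opposite directions. Both were named for their small p-values, and 8.96% of all tested genes separated downward and 9.02% upward. Of the 13 RNA polymerase II genes, 0 were called and 1 had an unadjusted p under 0.05. *Polr2h* was at -0.24 (SE 0.11, adjusted p by edgeR = 0.334) and *Polr2a*, which encodes the largest subunit, at -0.10 (SE 0.05, adjusted p by edgeR = 0.407).

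Parafibromin also binds cofactors of the Wnt and Hedgehog pathways. Of 8 such genes 5 were tested, and 1 was called, *Bcl9l*, which encodes a beta-catenin coactivator (background 3.11% called in either direction and 1.37% lower). It was at 135, 138 and 144 CPM in C75S and 152, 164 and 168 CPM in WT, and fell by 0.21 on the log2 scale (SE 0.05, adjusted p by edgeR = 0.0190). The call was lost when any of C75S replicates 1 and 2 and WT replicates 2 and 3 was left out (edgeR adjusted p up to 0.112). Unadjusted, 2 of the 5, *Bcl9l* and *Bcl9*, had a p under 0.05 by edgeR, against 13.4% of all tested genes. *Bcl9* was lower in every C75S library than in any WT library, as were 8.96% of all tested genes. Its log2 fold change was -0.18 (SE 0.09, adjusted p by edgeR = 0.367). *Ctnnb1*, which encodes beta-catenin, had a log2 fold change of 0.02 (SE 0.05, adjusted p by edgeR = 0.907). The Hedgehog effectors *Gli2* and *Gli3* had 0 counts in all libraries, and *Gli1* was too low to test.

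Of 8 genes that have been reported to respond to parafibromin in other cells, 6 were tested and 2 were called, both higher (background 1.74%). The directions of the reported responses were not compared with those seen here, so no match is read from these calls. *Ccnd1*, which encodes cyclin D1, was at 9.65, 9.87 and 7.81 CPM in C75S and 3.466, 4.679 and 4.997 CPM in WT. Its groups lay well apart, and it rose by 1.06 on the log2 scale (SE 0.16, adjusted p by edgeR = 0.000228). *Igfbp4*, which encodes a binding protein of insulin-like growth factors, was at 320, 311 and 294 CPM in C75S and 263, 260 and 286 CPM in WT and rose by 0.19 (SE 0.05, adjusted p by edgeR = 0.0361). Its call was lost when any of C75S replicates 1 and 2 and WT replicates 1 and 2 was left out (edgeR adjusted p up to 0.222). *Myc* was at 0.03 (SE 0.06, adjusted p by edgeR = 0.894), *Igf1* at 0.08 (SE 0.07, adjusted p by edgeR = 0.687) and *Hmga1* at -0.24 (SE 0.11, adjusted p by edgeR = 0.348). *Hmga2*, at 0.44 to 1.27 CPM, had a log2 fold change of 0.07 (SE 0.48, adjusted p by edgeR = 0.974). *H19* had 0 counts in every library, and *Igf2* was too low to test. The difference of *Ccnd1* was known when the list was made.

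**Figure D5:**
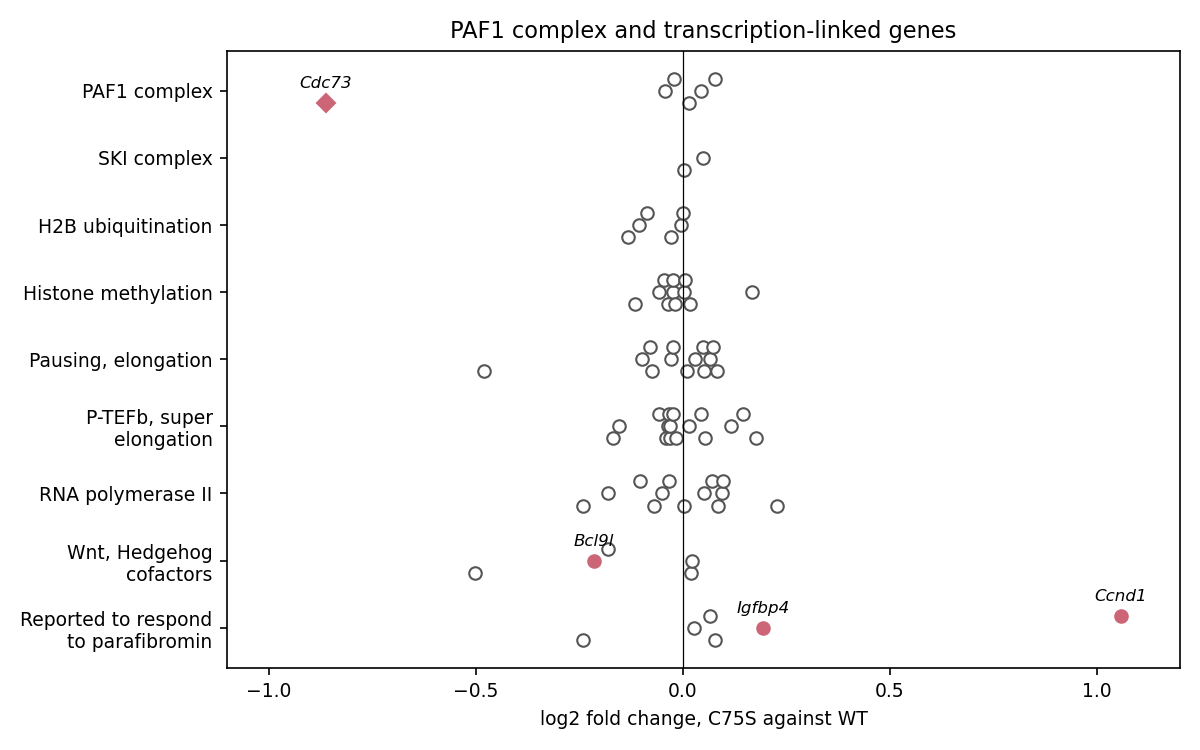
Log2 fold change of C75S against WT for the tested PAF1 complex genes and the 8 lists linked to transcription or parafibromin; filled circles passed an adjusted p-value of 0.05, open circles did not, and the diamond is Cdc73, shown without a test. Most points lie within 0.2 of 0, with Cdc73 at -0.86 and Ccnd1 at 1.06.

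Among markers of other liver cells, 1 cholangiocyte and 1 stellate cell marker were called, both higher in C75S; of all tested genes 3.11% were called in either direction and 1.74% higher. The summed level of 8 cholangiocyte markers was 180 to 234 CPM in C75S and 160 to 168 CPM in WT, with 5 tested and 1 called, *Krt19*, a keratin of bile duct cells, which averaged 9.52 ± 1.22 CPM over the C75S and 5.47 ± 0.26 CPM over the WT libraries (SD, n = 3 each). Most of that cholangiocyte sum was *Spp1*, which averaged 131 ± 25.8 CPM over the C75S and 91.0 ± 6.43 CPM over the WT libraries. *Spp1* was not called (adjusted p by edgeR = 0.235). *Cftr* was at 0 in all libraries. Of 8 stellate cell markers, 5 were tested and 1 was called, *Acta2*, which encodes smooth muscle actin. *Acta2* averaged 4.65 ± 0.30 CPM over the C75S and 2.62 ± 0.53 CPM over the WT libraries. The list's sum was 57.7 to 74.4 CPM in C75S and 72.1 to 93.5 CPM in WT. Most of that sum was *Reln*, which averaged 58.7 ± 8.70 CPM over the C75S and 75.2 ± 11.5 CPM over the WT libraries. *Reln* was not called (log2 fold change -0.36, SE 0.15, adjusted p by edgeR = 0.394). The *Acta2* call was lost when any of C75S replicates 1 and 2 and WT replicates 2 and 3 was left out (edgeR adjusted p up to 0.116). Endothelial markers summed to 36.9 to 48.5 CPM in C75S and 36.2 to 45.2 CPM in WT, with 0 of 6 tested called (2 at an unadjusted p under 0.05). Most of that sum was *Stab2*, which averaged 24.9 ± 4.88 CPM over the C75S and 26.4 ± 5.75 CPM over the WT libraries. The median log2 fold change of the 6 was 0.51, with 5 of the 6 estimates above 0, and *Pecam1* (0.70, SE 0.27), *Kdr* (0.69, SE 0.42) and *Lyve1* (0.85, SE 0.29) were higher in every C75S library than in any WT library, which 9.02% of all tested genes were. Kupffer cell and macrophage markers summed to 96.4 to 140 CPM in C75S and 102 to 134 CPM in WT, nearly all from *Cd68*, with 0 of 2 tested called (0 at an unadjusted p under 0.05). The part of these markers in the levels of *Cdc73* and *Ccnd1* was not tested.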

How the data were processed

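RNA was sequenced from 6 hepatocyte libraries on an Illumina HiSeq3000 after TruSeq preparation, per the labels' protocols. The submitters' processing notes name Trim Galore 0.6.6, STAR 2.7.9a, edgeR 3.36.0 and the mm10 (GRCm38) build. Their settings and the annotation release are not given in the sources used here. The authors deposited unnormalized read counts for each Ensembl gene, in 1 column per strand setting. Column 4 (reverse strand) was used, since its total was 33.3 times that of the forward column. The 4 summary rows were dropped: multimapping reads were 17.98% to 18.54% of reads, unmapped 4.37% to 5.81%, no feature 4.99% to 5.55% and ambiguous 0.89% to 0.93%. Names, positions and lengths came from GENCODE M21 (GRCm38), which matched 55227 of 55487 gene rows.

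Genes were filtered with filterByExpr (minimum count 10, minimum total 15), TMM-scaled and compared between genotypes by the robust, two-sided quasi-likelihood F-test of edgeR 4.0.16 in R 4.3.3, with Benjamini-Hochberg adjustment over all 12741 genes and a threshold of 0.05. It called 396 genes, 222 higher and 174 lower; 1709 had an unadjusted p under 0.05. A standard error is the log2 fold change over the square root of F, and 95% intervals use the fit's degrees of freedom. A count of 3 equals 0.143 to 0.177 CPM. Replicates differed by more than counting noise (chi-square per degree of freedom 4.05 to 8.99). Copies were sought with BLAST 2.17.0.

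Named genes are the 6 subunits, *Mtdh*, the 5 genes most like *Cdc73*, called genes within 2 Mb and the nearest tested gene on each side, the called members of each transcription-linked list (up to 4 by p-value, otherwise the 2 with the smallest p-values), and up to 3 called members of each marker list. Other list and marker genes named were chosen after their values were seen. The members and lists were chosen with earlier results of these data known. As alternatives, each library was left out in turn, and the fit was repeated with DESeq2 1.42.0, limma-voom (limma 3.58.1), a replicate block, unstranded counts, no filter beyond 1 count, other windows, and scaling by RLE, the upper quartile or library size. Other lengths for the level per kilobase were added after seeing the data.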

Additional observations from a re-analysis of the deposited data

How the results depend on the processing

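Under the 8 alternatives that kept all libraries, the log2 fold change of *Cdc73* ran from -0.87 to -0.85, and without single libraries from -0.90 to -0.84. The number of other PAF1 complex subunits called was 0 in all 14 alternatives. The count of 396 called genes ran from 381 to 573 with all libraries and from 201 to 355 without single libraries (201 without WT replicate 2, 246 without WT replicate 3, 253 without C75S replicate 1). Called genes of the transcription-linked lists numbered 3 with all libraries, of 72 tested in the main fit (4.17%, against 3.11% of all tested genes). Without single libraries they numbered 1 to 3, with 1 left (*Ccnd1*) when C75S replicate 1 or 2 or WT replicate 2 was left out. The difference of *Ccnd1* was known beforehand. Within 2 Mb, 2 genes, *Cdc73* itself included, were called in every fit, and within 5 Mb 4 were. Leaving out single libraries turned the sign of 6 genes near 0, none of them called: *Ctr9* ran from -0.0093 to 0.026, *Wdr61* from -0.081 to 0.062, *Skiv2l* from -0.051 to 0.062, *Uchl5* from -0.089 to 0.022, *Mtdh* from -0.022 to 0.04996 and *Gm5835* from -0.146 to 0.333. The cause was not tested. Per kilobase of coding sequence *Cdc73* ranked 3 of 6 in WT, against 6 per kilobase of transcript.

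The genotypes share replicate numbers, but same-numbered libraries did not deviate together (correlations of 0.017, -0.040 and 0.025 for numbers 1 to 3). With a replicate block 480 genes were called, 0 other PAF1 complex subunits, 3 transcription-linked genes and 2 genes within 2 Mb, and *Cdc73* was at -0.86.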

Other observations

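Reads on the strand opposite to each subunit were counted in the forward-strand column, which the comparisons did not use. *Cdc73* had 1 such read in all 6 libraries together, *Rtf1* 2, *Leo1* 3, *Ctr9* 32 and *Paf1* 33. *Wdr61* had 390, with 58, 67 and 62 in C75S and 48, 78 and 77 in WT. A stretch of 33.9% of the exon bases of *Wdr61* overlaps exons of *Dnaja4*, a chaperone gene on the opposite strand.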
